A study of Homo sapiens with 6 samples.

Results

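HLA class I antigen presentation was followed through 9 genes in A549, a cell line from a human lung adenocarcinoma: the heavy chains HLA-B, HLA-C and HLA-E, the light chain B2M, the peptide transporter subunits TAP1 and TAP2, the loading factor TAPBP, and the immunoproteasome subunits PSMB8 and PSMB9. They were chosen by symbol: every entry of the transcript count table whose RefSeq accession maps to one of these symbols was taken and summed per gene. That gave 9 of the 28452 genes in the table, from 108 of its 84787 transcript entries. The cells had been infected with a lentivirus that expressed either a control short hairpin RNA or one against CBX8, which encodes a chromodomain protein of Polycomb repressive complex 1, and kept as stable lines. There were 3 groups of 2 libraries: control (genotype given as control), shCBX8-1 and shCBX8-2 (genotype of both given as CBX8 knockdown). All groups shared the cell line, the serum-containing medium and the lentiviral infection. The labels state neither what the first number in the shCBX8 titles stands for nor if the 2 libraries of each group are separate cultures, so the standard errors and p-values below measure the spread between these libraries, which may be technical.

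Class I molecules display peptides made inside the cell to cytotoxic T cells. Proteins are cut by the proteasome, whose inducible immunoproteasome form carries PSMB8 and PSMB9, the peptides are pumped into the endoplasmic reticulum by the TAP1 and TAP2 heterodimer, and tapasin, the product of TAPBP, holds empty heavy chains and beta-2 microglobulin (B2M) at the transporter until a peptide is bound. HLA-B and HLA-C are classical, highly polymorphic heavy chains, while HLA-E shows leader peptides of other class I chains to receptors of natural killer cells. Interferon gamma, through JAK and STAT proteins, IRF1 and the transactivator NLRC5, is the textbook inducer of the whole pathway, and many tumours carry low levels of it.

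In the RefSeq annotation of GRCh38.p14, 8 of the 9 genes lie in the major histocompatibility complex on chromosome 6 and B2M lies on chromosome 15. HLA-E spans chr6:30489509-30494194, HLA-C chr6:31268749-31272092 and HLA-B chr6:31353875-31357179. TAP2 (chr6:32821831-32838739), PSMB8 (chr6:32840717-32844679), TAP1 (chr6:32845209-32853704) and PSMB9 (chr6:32854192-32859851) follow one another, and TAPBP spans chr6:33299694-33314078. B2M spans chr15:44711517-44718145. TAP1 and PSMB9 are read in opposite directions, and 488 bases separate the start of PSMB9 from the farther upstream start of TAP1.

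The 250 bases before the start site are shown for 4 of the genes: HLA-B and HLA-C because HLA-B passed the test below and the neighbouring HLA-C did not, B2M as the shared light chain, and PSMB9 as the gene with the widest range between the knockdown groups. They are the RefSeq reference for GRCh38.p14, not the alleles of A549, and run 5′ to 3′ on the strand of the gene: HLA-B at chr6:31357180-31357429 (minus strand), HLA-C at chr6:31272093-31272342 (minus strand), B2M at chr15:44711267-44711516 (plus strand) and PSMB9 at chr6:32853942-32854191 (plus strand). Capitals mark matches on either strand to 6 short motifs: the core of the interferon-stimulated response element (GAAA, any 2 bases, GAAA), the interferon gamma activated site (TTCNNNGAA), a kappa B site (GGGNNTTCC), a CRE-like part of the class I enhancer (TGACGC), a full CRE (TGACGTCA) and the CCAAT box (CCAAT).
HLA-B: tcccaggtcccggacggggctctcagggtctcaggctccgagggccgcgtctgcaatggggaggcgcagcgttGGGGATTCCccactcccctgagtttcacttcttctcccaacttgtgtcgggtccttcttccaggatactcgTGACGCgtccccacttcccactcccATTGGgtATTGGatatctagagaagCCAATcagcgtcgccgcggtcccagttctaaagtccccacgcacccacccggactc
HLA-C: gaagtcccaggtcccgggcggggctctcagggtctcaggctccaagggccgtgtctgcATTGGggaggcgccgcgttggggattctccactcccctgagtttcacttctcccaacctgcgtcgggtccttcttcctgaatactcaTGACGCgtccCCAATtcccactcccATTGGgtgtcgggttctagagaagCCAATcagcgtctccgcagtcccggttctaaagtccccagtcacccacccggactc
B2M: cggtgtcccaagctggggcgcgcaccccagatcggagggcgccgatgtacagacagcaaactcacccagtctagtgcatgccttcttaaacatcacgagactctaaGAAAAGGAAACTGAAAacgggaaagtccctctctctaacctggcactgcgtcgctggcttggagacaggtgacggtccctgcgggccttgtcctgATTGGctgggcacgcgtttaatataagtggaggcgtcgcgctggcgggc
PSMB9: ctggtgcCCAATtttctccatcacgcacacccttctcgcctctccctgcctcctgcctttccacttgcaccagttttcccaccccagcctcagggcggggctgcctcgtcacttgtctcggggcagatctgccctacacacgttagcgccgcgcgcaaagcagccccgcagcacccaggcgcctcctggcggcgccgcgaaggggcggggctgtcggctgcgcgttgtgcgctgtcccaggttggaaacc

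A promoter was found in the table for 8 of the 9 genes; for HLA-E none was matched. The response element core was present before 4 of them (B2M, TAP1, TAP2 and TAPBP), against 3.02% of all 35116 promoter windows of the same length. In B2M its overlapping matches lie at -144 to -135 and -138 to -129, and in TAP1 at -134 to -125 and -128 to -119. The kappa B letters were present before HLA-B, PSMB8 and TAPBP (5.78% of all windows); in HLA-B they sit at -177 to -169, and the HLA-C window holds no match. The letters TGACGC were present before HLA-B, HLA-C and TAP2 (7.67% of all windows). CCAAT was present before 5 of the genes (32% of all windows), and the activated site before PSMB8 and TAP1 (6.57%). TAP1 and PSMB8 each have another start site with its own window, and a match in either was counted for the gene, while the shares are per window. In TAP1 the activated site lies before the start at chr6:32852761 and the response element core before the start at chr6:32853704. The full CRE was in 0 of the 8 genes' windows and in 1.65% of all windows. A match describes the letters only and does not show that a factor binds.

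Library totals ran from 64197784 to 67169537 estimated counts, and 17115 genes passed the filter on low counts. CBX8 itself was measured at 24.6 and 26.3 CPM (the depth-scaled count, computed here on TMM-scaled library totals) in the control libraries, 7.79 and 7.70 in the shCBX8-1 libraries, and 17.7 and 13.8 in those of shCBX8-2, with all 4 knockdown libraries below both controls. The log2 fold change of CBX8 was -1.71 ± 0.16 (SE) in shCBX8-1 and -0.69 ± 0.15 in shCBX8-2 (adjusted p = 0.00708 and 0.0297, edgeR quasi-likelihood test). CD3E, CD3D, MS4A1 and CD52 were at 0 in all 6 libraries, while 8 of the 13 leukocyte markers had counts. Among these were CD14 (2.42 to 4.65 CPM), LAPTM5 (0.890 to 1.83) and ITGAM (0 to 2.27). The 13 leukocyte markers summed to between 3.78 and 8.42 CPM. This sum and the other sums over marker lists use unscaled library totals, without TMM scaling. They are therefore not on the scale of the single-gene values. Markers of other lists moved with the groups. The 7 epithelial markers, all counted, summed to 26030 and 25330 CPM in the controls, 22420 and 22200 in the shCBX8-1 libraries, and 29800 and 27320 in those of shCBX8-2; 4 of them rose in shCBX8-2 (EPCAM, KRT8, KRT18 and CLDN4), and in shCBX8-1 KRT19 rose (log2 fold change 3.39) and CDH1 fell (-0.92). The 7 fibroblast markers summed to 12.5 and 15.3 CPM in the controls, 9.08 and 9.71 in the shCBX8-1 libraries, and 5.85 and 5.49 in those of shCBX8-2, with DCN at 0 throughout and COL1A1 lower in shCBX8-2 (-1.27, adjusted p = 0.0079, edgeR). The 5 endothelial markers summed to between 1.94 and 5.40 CPM, with KDR at 0 throughout. The part of these shifts in the results below was not tested. The 9 class I genes together held 0.121% and 0.124% of all counts in the control libraries, 0.148% and 0.147% in the shCBX8-1 libraries, and 0.1% and 0.099% in those of shCBX8-2. The genes were proposed with the knockdown contrasts in view, so the levels, fold changes and counts of calls given for them describe these libraries and are not an independent test. Both contrasts against control also share the same control libraries.

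Of the 9 genes, 8 had both shCBX8-1 libraries above both controls (all but HLA-C), where 28.4% of all genes tested did. In shCBX8-2, 7 had both libraries below both controls (all but B2M and TAP2), against 31.4% of all genes. For HLA-B, HLA-E, TAP1, TAPBP, PSMB8 and PSMB9, 6 of the 9, both patterns held at once, as they did for 858 genes or 5.01% of those tested. HLA-E counts as higher in shCBX8-1 only narrowly: its lower shCBX8-1 library was at 130.118 CPM and its higher control at 129.989. Its log2 fold change there was 0.02 ± 0.07 (SE). The median log2 fold change over the 9 genes was 0.28 in shCBX8-1 and -0.42 in shCBX8-2, beside medians of -0.0093 and -0.044 over all genes.

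**Figure D1:**
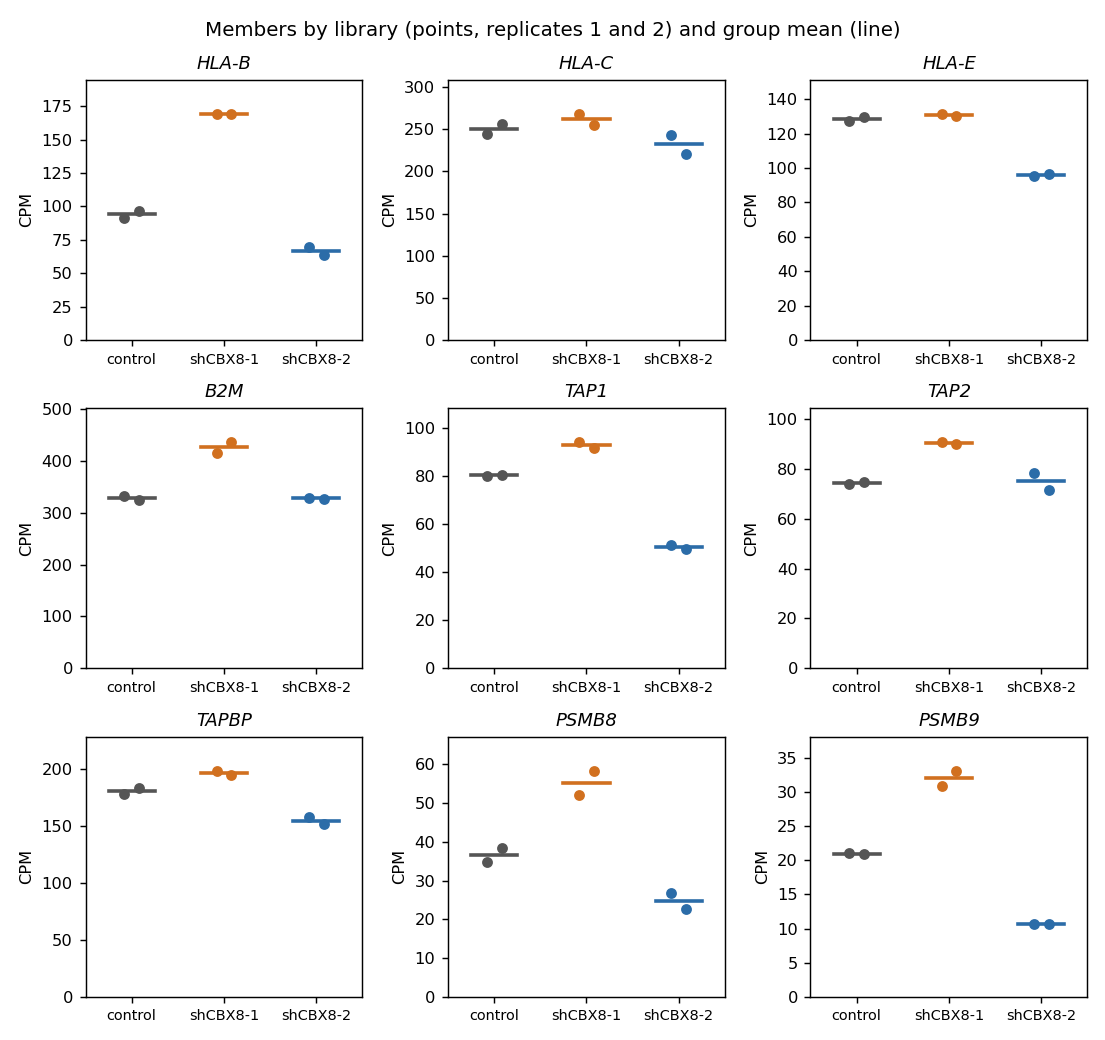
Level of each of the 9 genes (CPM, axes from 0 and separate for each gene) in the libraries of the control, shCBX8-1 and shCBX8-2 groups; points are libraries and lines are group means. HLA-B, PSMB8 and PSMB9 show shCBX8-1 points above and shCBX8-2 points below the control points, while the HLA-C points lie close together.

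Among the heavy chains, HLA-B was counted at 91.6 and 96.8 CPM in the controls, 169 and 169 in the shCBX8-1 libraries, and 69.3 and 63.4 in those of shCBX8-2. None of the 3 groups overlapped: shCBX8-1 was at 180% of the control mean and shCBX8-2 at 70.4%. The log2 fold change was 0.85 ± 0.08 (SE) in shCBX8-1 and -0.51 ± 0.08 in shCBX8-2, and both were past an adjusted p of 0.05. Reads of the classical heavy chains can be assigned to a near-identical gene or allele, so the single-gene values of HLA-B and HLA-C are uncertain in that respect.

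HLA-C, the other classical chain of the set, was counted at 245 and 256 CPM in the controls, 269 and 256 in the shCBX8-1 libraries, and 243 and 221 in those of shCBX8-2. Its shCBX8-1 and control libraries overlapped, and no contrast reached the threshold (log2 fold change 0.07 ± 0.08 and -0.11 ± 0.08, SE). HLA-E, the non-classical chain, was counted at 127 and 130 CPM in the controls, 132 and 130 in the shCBX8-1 libraries, and 95.4 and 96.8 in those of shCBX8-2. The shCBX8-2 libraries stood apart below the other 4, with a log2 fold change of -0.42 ± 0.07 (SE), whereas shCBX8-1 lay at 0.02 ± 0.07.

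B2M, which every class I heavy chain needs to reach the cell surface, was counted at 332 and 324 CPM in the controls, 416 and 436 in the shCBX8-1 libraries, and 329 and 327 in those of shCBX8-2. The shCBX8-1 libraries were the high ones, and the shCBX8-2 libraries lay between the control libraries at 99.9% of their mean. The log2 fold change in shCBX8-1 was 0.38 ± 0.06 (SE).

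Of the transporter subunits, TAP1 and not TAP2 passed the test in shCBX8-2; their difference was not tested. TAP1 was counted at 80.3 and 80.5 CPM in the controls, 94.3 and 91.7 in the shCBX8-1 libraries, and 51.6 and 49.6 in those of shCBX8-2, so that the 3 groups were separate and shCBX8-2 stood at 62.9% of control. TAP2, its partner in the heterodimer, was counted at 74.1 and 74.7 CPM in the controls, 90.8 and 89.9 in the shCBX8-1 libraries, and 78.4 and 71.6 in those of shCBX8-2, where the shCBX8-2 libraries lay on either side of the controls. In shCBX8-2 the log2 fold change was -0.67 ± 0.08 (SE) for TAP1 and 0.01 ± 0.08 for TAP2; in shCBX8-1 it was 0.21 ± 0.08 and 0.28 ± 0.08. TAPBP, which bridges the transporter and the empty class I molecule, was counted at 178 and 184 CPM in the controls, 199 and 195 in the shCBX8-1 libraries, and 158 and 151 in those of shCBX8-2. Its 3 groups did not overlap, but neither contrast against control reached the threshold in the edgeR test (log2 fold change 0.12 ± 0.07 and -0.23 ± 0.07, SE); the DESeq2 Wald test called TAPBP lower in shCBX8-2.

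The immunoproteasome subunits, with HLA-B, showed the widest spread between the knockdown groups. PSMB8, a catalytic subunit, was counted at 34.8 and 38.3 CPM in the controls, 52.0 and 58.4 in the shCBX8-1 libraries, and 26.7 and 22.7 in those of shCBX8-2. PSMB9, the catalytic subunit encoded beside TAP1, was counted at 21.0 and 20.9 CPM in the controls, 30.9 and 33.2 in the shCBX8-1 libraries, and 10.6 and 10.7 in those of shCBX8-2. All 3 groups were separate for each gene, and PSMB9 in shCBX8-2 stood at 50.9% of control. The log2 fold change of PSMB9 was 0.61 ± 0.11 (SE) in shCBX8-1 and -0.97 ± 0.11 in shCBX8-2, and that of PSMB8 was 0.59 ± 0.12 and -0.57 ± 0.12.

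By the edgeR quasi-likelihood test adjusted over all 17115 genes, 3 of the 9 passed in shCBX8-1 (HLA-B, B2M and PSMB9, all higher; 1.34% of all genes were called higher). In shCBX8-2, 5 of the 9 passed (HLA-B, HLA-E, TAP1, PSMB8 and PSMB9, all lower), where 6.64% of all genes were called lower. HLA-B and PSMB9 were called higher in one knockdown and lower in the other, as were 18 genes or 0.105% of those tested. Nothing is read from these shares, since the contrasts served to choose the genes. Leaving out either control library, or either shCBX8-1 library, left 0 of the 9 called in shCBX8-1, and leaving out either shCBX8-2 library raised the count to 5. The calls over all genes moved with them in this contrast, from 2.47% to between 0% and 0.0393% in the first refits and to 13% in each of the last. In shCBX8-2 the count was 0 without either control library and 4 to 6 without any other, while the share of all genes called was 1.01% and 0.781% without a control library and 5.39% to 30.9% without another. The DESeq2 Wald test called 5 of the 9 in shCBX8-1 (8.63% of all genes) and 6 in shCBX8-2 (20.8%). The fold changes themselves moved little in these refits: HLA-B stayed between 0.82 and 0.90 in shCBX8-1 and between -0.56 and -0.44 in shCBX8-2, and PSMB9 between 0.57 and 0.67 and between -0.99 and -0.95.

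**Figure D2:**
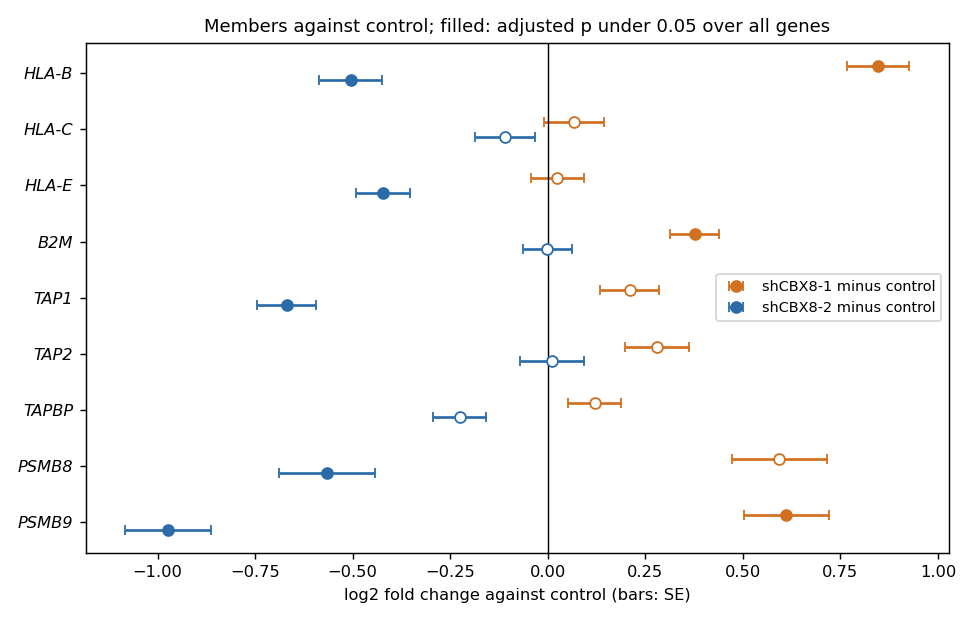
Log2 fold change against control (horizontal axis, bars are SE) of the 9 genes in shCBX8-1 and shCBX8-2; filled points passed an adjusted p of 0.05. The shCBX8-1 points run from 0.02 for HLA-E to 0.85 for HLA-B, and the shCBX8-2 points from -0.97 for PSMB9 to 0.01 for TAP2.

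The difference between the knockdown groups does not use the control libraries in its fold change. All 9 genes had both shCBX8-2 libraries below both shCBX8-1 libraries, against 27.9% of all genes, and 7 of the 9 were called lower (all but HLA-C and TAP2), where 5.77% of all genes were. The log2 difference, shCBX8-2 minus shCBX8-1, was -1.58 ± 0.11 (SE) for PSMB9, -1.35 ± 0.08 for HLA-B, -1.16 ± 0.12 for PSMB8 and -0.88 ± 0.08 for TAP1. It was smaller for HLA-E (-0.45 ± 0.07), B2M (-0.38 ± 0.06) and TAPBP (-0.35 ± 0.07), and smallest for TAP2 (-0.27 ± 0.08) and HLA-C (-0.18 ± 0.08). The count of calls was 4 without shCBX8-1 replicate 1 and 3 without shCBX8-1 replicate 2, where 0.708% and 0.807% of all genes were called in either direction. In the mean of both knockdowns against control, 0 of the 9 passed the edgeR test, where 6.79% of all genes did. At an unadjusted p under 0.05 there were 4 of the 9. The share of all genes at that level was not counted, so nothing is read from it. The DESeq2 Wald test called 3 (B2M, HLA-E and TAP1) and 14.3% of all genes. In the edgeR fit the log2 fold changes of this mean ran from -0.23 ± 0.07 (SE) for TAP1 to 0.19 ± 0.06 for B2M. The edgeR count there was 3 without shCBX8-2 replicate 1 and 4 without shCBX8-2 replicate 2, where 18.1% and 25% of all genes were called.

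All 9 genes are listed in the deposited table more than once, with a copy suffix added to a repeated accession. The order of the entries in the table places the copies in 8 stretches of chromosome 6 genes, 1 among the other genes of the chromosome and 7 apart from them, taken here as the main locus and 7 alternate copies of the region; B2M has 1 alternate copy. For HLA-B, 0.55% of its counts were in the entry without a suffix and 0.04% in the entry at the main locus. The corresponding share of counts in entries without a suffix was 67.0% for HLA-C, 64.9% for B2M, 14.5% for HLA-E, 12.0% for TAP1 and 4.87% for PSMB8. Copies of TAP1 held nearly equal counts, 9.38 to 10.3 CPM in control replicate 1, so a sum over copies may count a read more than once; whether it does was not tested. Levels were therefore not compared between genes. If reads repeat, the summed counts may also make the SE and p-values of these genes too small. For PSMB9 in shCBX8-2 the SE was 0.11 from all entries and 0.28 at the main locus, where fewer counts remained. The adjusted p was 0.00435 and 0.0818 (edgeR quasi-likelihood test).

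The copies may share reads, so agreement between copies is not repeated evidence, and the counts of copies are a description. At each copy of TAP1 with at least 600 counts, 8 of 8, the level was higher in shCBX8-1 (log2 ratio of group means 0.20 to 0.23) and lower in shCBX8-2 (-0.68 to -0.66). PSMB9 did the same at 8 of 8 copies (0.17 to 1.21 and -1.50 to -0.56), HLA-B at 4 of 4 (0.79 to 0.90 and -1.61 to -0.47) and TAPBP at 5 of 5 (0.095 to 0.14 and -0.25 to -0.16). HLA-E was lower in shCBX8-2 at 7 of 7 copies (-1.50 to -0.10), and 1 of these copies held 0 counts in shCBX8-2 replicate 1. PSMB8 was higher in shCBX8-1 at 8 of 8 copies (0.56 to 0.88). In shCBX8-2 it was lower at 7 of 8, all of them alternate copies (-0.98 to -0.94), while at the main locus it was higher (0.79): there shCBX8-2 replicate 1 stood at 13.8 CPM and replicate 2 at 3.12, beside 4.79 and 4.99 in control. TAP2 was higher in shCBX8-1 at 8 of 8 copies (0.048 to 0.46) and lower in shCBX8-2 at 3 of 8 (-0.18 to 0.18). HLA-C was higher in shCBX8-1 at 5 of 5 copies (0.023 to 1.33) and lower in shCBX8-2 at 2 of 5 (-0.17 to 0.78). B2M was higher in shCBX8-1 at both copies (0.33 and 0.46), and in shCBX8-2 its copies lay on either side of control (-0.081 and 0.15). HLA-E in shCBX8-1 was higher at 4 of 7 copies (-0.025 to 0.07).

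**Figure D3:**
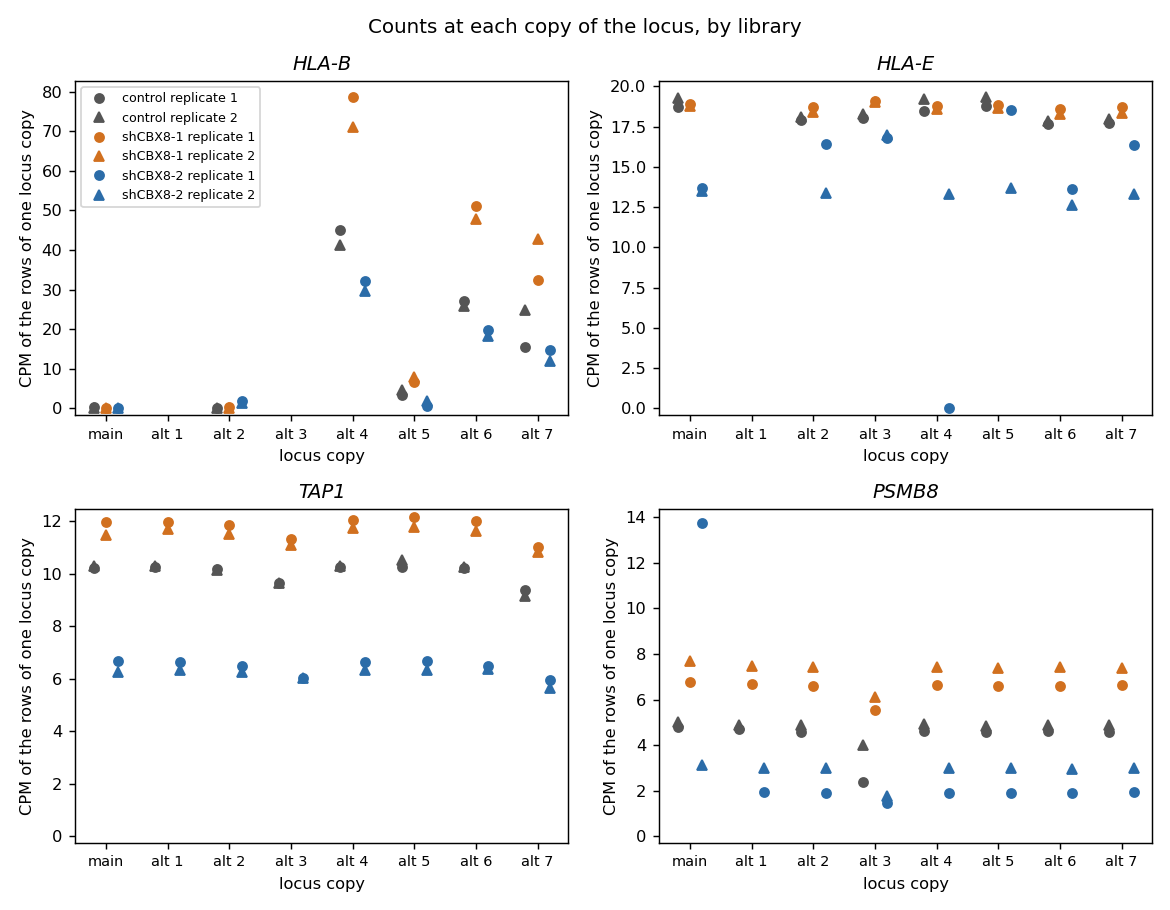
Level (CPM, linear axes from 0) of HLA-B, HLA-E, TAP1 and PSMB8 at each copy of the region (horizontal axis: the main locus and alternate copies 1 to 7), with 1 point for each library. The TAP1 points keep the order of the groups at all 8 copies, nearly all HLA-B counts lie at alternate copies 4 to 7, and single shCBX8-2 replicate 1 points stand apart for PSMB8 (13.8 CPM at the main locus) and HLA-E (0 at alternate copy 4).

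The direction of HLA-B and PSMB8 in shCBX8-2 turned with the entries used. With only entries without a suffix, HLA-B was left with 0.106 and 0.0448 CPM in the controls, 0.368 and 0 in the shCBX8-1 libraries, and 1.81 and 1.41 in those of shCBX8-2, and its log2 fold change in shCBX8-2 turned to 4.37 ± 1.41 (SE), which did not pass the test. With entries of the main locus only, PSMB8 in shCBX8-2 turned to 0.79 ± 0.58 (SE), again short of the threshold; with alternate copies only it was -0.96 ± 0.20. Without suffixed entries the values of TAP2 and TAPBP in shCBX8-1, which had not passed the test, also changed sign, to -0.35 ± 0.57 (SE) and -0.05 ± 0.70, and TAPBP in shCBX8-2 moved to -1.02 ± 0.71. TAP1 in shCBX8-2 changed little between the sets: -0.69 ± 0.13 without suffixed entries, -0.66 ± 0.13 at the main locus and -0.67 ± 0.08 at alternate copies. These sets may hold the same reads, so they are not separate measurements. Entries without a suffix gave 0 calls among the 9 genes in shCBX8-1, 1 in shCBX8-2 (TAP1) and 3 between the knockdowns (B2M, PSMB9 and TAP1). Main-locus entries gave 0, 2 (HLA-E and TAP1) and 4 (B2M, HLA-E, PSMB9 and TAP1). Without suffixed entries 2.09%, 12.6% and 9.65% of all genes were called in these contrasts, and with main-locus entries 2.44%, 12.6% and 9.76%. With all entries the shares were 2.47%, 12.7% and 9.82%. The main-locus refit changed only the entries of the 9 genes and of other heavy chains.

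**Figure D4:**
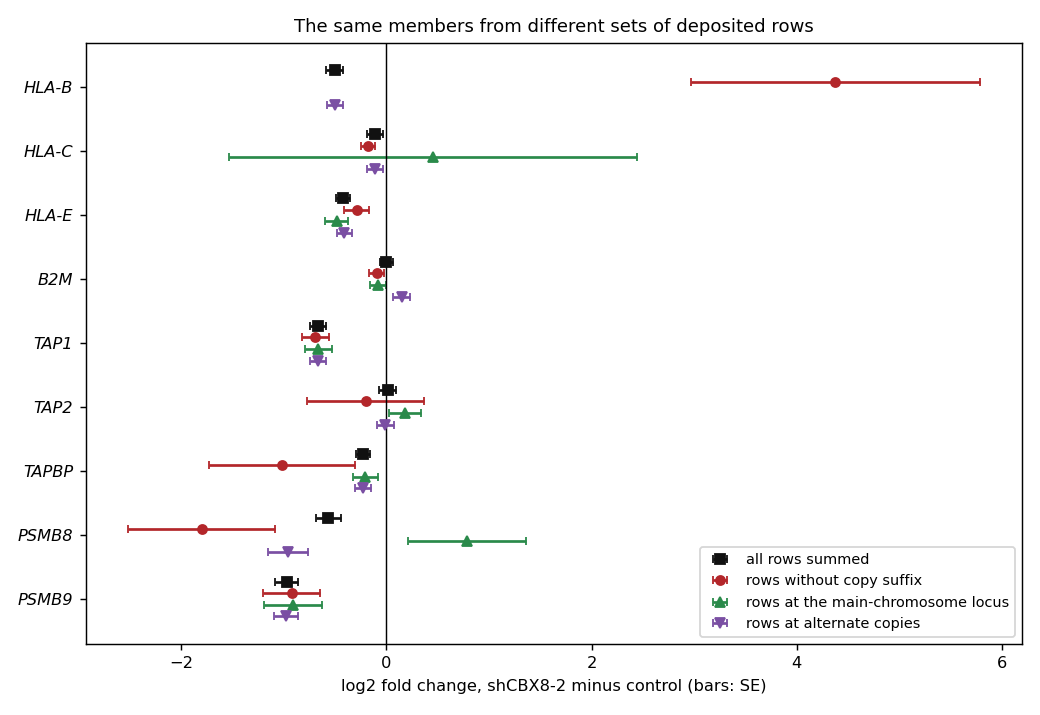
Log2 fold change in shCBX8-2 against control (horizontal axis, bars are SE) of the 9 genes from all entries summed, entries without a copy suffix, entries at the main locus and entries at alternate copies. HLA-B without suffixed entries lies at 4.37 and PSMB8 at the main locus at 0.79, both on the other side of 0 from the sum over all entries. Genes that had not passed with all entries also changed side. These were HLA-C at the main locus (0.45), B2M at alternate copies (0.15), and TAP2 without suffixed entries (-0.20) and at alternate copies (-0.012). HLA-B could not be tested at the main locus, where it failed the filter.

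The other genes of antigen presentation, 75 in 7 lists, gave calls in both directions. Of the 64 that passed the filter, 2 rose and 0 fell in shCBX8-1 (2.47% of all genes were called in either direction), and 6 rose and 5 fell in shCBX8-2 (12.7% of all genes). In the difference between the knockdowns 2 were higher and 7 lower in shCBX8-2, against 9.82% of all genes called. The median log2 fold change of the 64 was 0.027 in shCBX8-1 and -0.090 in shCBX8-2. Without either control library, most calls of the 64 in shCBX8-1 and shCBX8-2 were lost, as were most calls over all genes. All p-values in the following paragraphs are edgeR quasi-likelihood values adjusted over all genes, unless called unadjusted. The share of all genes at an unadjusted p under 0.05 was not counted. Nothing is therefore read from the counts of listed genes at that level.

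Among the other heavy chains and loading factors, 8 of 9 were tested, 3 rose and 0 fell in shCBX8-2, and 0 were called by edgeR in shCBX8-1 (4 at an unadjusted p under 0.05, and 2 by DESeq2). Of all 17115 genes, 1032 were called higher in shCBX8-2. Calreticulin (CALR), a chaperone of the loading complex, was at 444 and 467 CPM in the controls, 511 and 543 in the shCBX8-1 libraries, and 650 and 604 in those of shCBX8-2, and rose in the last (log2 fold change 0.46 ± 0.07 SE, adjusted p = 0.0102). The disulfide isomerase PDIA3 rose by 0.32 ± 0.07 (adjusted p = 0.0291) and the tapasin-related peptide editor TAPBPL by 0.74 ± 0.12 (adjusted p = 0.0122), both in shCBX8-2 and both in the opposite direction to TAP1. HLA-F, a non-classical chain, was at 5.93 and 4.84 CPM in the controls, 10.2 and 8.64 in the shCBX8-1 libraries, and 4.81 and 3.94 in those of shCBX8-2, and differed between the knockdowns (-1.11 ± 0.20, adjusted p = 0.0196). The HLA-F difference depended on the entries used. It was -1.11 ± 0.44 (adjusted p = 0.165) at the main locus and -0.75 ± 0.52 (adjusted p = 0.416) without suffixed entries. With alternate copies only it passed (adjusted p = 0.0238). HLA-F in shCBX8-2 against control turned from -0.30 ± 0.20 to 0.87 ± 0.53 without suffixed entries, and passed in neither. HLA-G was listed at 0 in all 6 libraries.

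The constitutive proteasome subunits that PSMB8 and PSMB9 replace passed the edgeR test in no contrast. PSMB5, the counterpart of PSMB8, had log2 fold changes of -0.05 ± 0.08 (SE) in shCBX8-1 and 0.05 ± 0.08 in shCBX8-2, and PSMB6, the counterpart of PSMB9, had -0.13 ± 0.07 in each. PSMB10, the remaining inducible catalytic subunit, lies outside the major histocompatibility complex; it was at 33.5 and 29.3 CPM in the controls, 42.1 and 38.0 in the shCBX8-1 libraries, and 47.2 and 37.9 in those of shCBX8-2. Both knockdowns lay above control for PSMB10, but neither contrast passed (0.35 ± 0.14 and 0.44 ± 0.14, adjusted p = 0.264 and 0.0887); the DESeq2 Wald test called it in shCBX8-2. PSMB7, its constitutive counterpart, stood at 0.10 ± 0.09 in shCBX8-2. Of the 8 genes of this list 1 was called in shCBX8-2 (12.7% of all genes were), the activator subunit PSME3 (0.30 ± 0.06, adjusted p = 0.0248). PSME2, of the interferon-inducible activator, differed between the knockdowns by -0.34 ± 0.07 (adjusted p = 0.0349). Of 5 cytosolic peptidases, NPEPPS (puromycin-sensitive aminopeptidase) rose in both knockdowns, by 0.65 ± 0.09 and 0.50 ± 0.09 (adjusted p = 0.0265 and 0.0197); TPP2, BLMH and LNPEP passed in none.

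Of 21 regulators, 0 were called by edgeR in shCBX8-1 (3 at an unadjusted p under 0.05, and 2 by DESeq2) and 2 fell in shCBX8-2, a share near the 6.64% of all genes called lower there, so that nothing particular to the list is read from it. JAK1, the kinase shared by interferon receptors, was at 225 and 209 CPM in the controls, 209 and 215 in the shCBX8-1 libraries, and 109 and 112 in those of shCBX8-2. It fell by 0.98 ± 0.07 on the log2 scale in shCBX8-2 (adjusted p = 0.0017), and both shCBX8-2 libraries lay far below the other 4. RFX5, which binds the X box of class I and class II promoters, fell by 0.44 ± 0.09 (adjusted p = 0.0247). NFKB1 differed between the knockdowns by -0.64 ± 0.10 (adjusted p = 0.0149), with 37.4 and 39.6 CPM in shCBX8-1 and 25.7 and 23.8 in shCBX8-2. NLRC5 and IRF1 passed in no contrast: their log2 fold changes in shCBX8-2 were -0.06 ± 0.19 and 0.06 ± 0.11 (adjusted p = 0.879 and 0.792), and in shCBX8-1 0.29 ± 0.19 and 0.16 ± 0.11. IFNGR1, a chain of the interferon gamma receptor, stood at -0.42 ± 0.09 in shCBX8-1 (adjusted p = 0.0666).

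Of 10 interferon gamma readout genes, 6 were tested and 0 passed against control in either knockdown, by edgeR; at an unadjusted p under 0.05 there were 1 and 3, and DESeq2 called 1 and 2. The guanylate-binding protein GBP2 was at 8.65 and 9.10 CPM in the controls, 3.88 and 4.84 in the shCBX8-1 libraries, and 4.45 and 6.36 in those of shCBX8-2, and fell in the mean of both knockdowns (-0.87 ± 0.19, adjusted p = 0.0413). GBP1 stood at -0.09 ± 0.56 in shCBX8-1 and -2.01 ± 0.60 in shCBX8-2 (adjusted p = 0.0735), and IFI30, a lysosomal thiol reductase, at 0.16 ± 0.09 and 0.21 ± 0.09. CD274, which encodes PD-L1, was at or under 0.538 CPM in all libraries. Of 10 class II genes, 5 were tested and 2 fell in shCBX8-2: HLA-DMB, a chain of the class II peptide editor (-1.04 ± 0.21, adjusted p = 0.0226), and HLA-DPA1 (-2.23 ± 0.49, adjusted p = 0.0312), which was at 0.965 and 0.837 CPM in the controls, 1.35 and 1.67 in shCBX8-1 and 0.126 and 0.254 in shCBX8-2. HLA-DMA and CD74 did not pass. Of all genes, 6.64% were called lower in shCBX8-2.

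Of 11 class I-like genes tested, 1 rose and 1 fell in shCBX8-2, where 12.7% of all genes were called in either direction. Nothing particular to the list is read from these counts. RAET1E, a ligand of the natural killer receptor NKG2D, was at 1.48 and 1.66 CPM in the controls, 3.97 and 3.67 in the shCBX8-1 libraries, and 5.14 and 4.55 in those of shCBX8-2, and rose in both knockdowns (1.28 ± 0.21 and 1.62 ± 0.21, adjusted p = 0.0336 and 0.006). MR1, which presents vitamin metabolites to innate-like T cells and also pairs with B2M, was at 25.6 and 27.6 CPM in the controls, 22.8 and 23.0 in the shCBX8-1 libraries, and 15.7 and 14.9 in those of shCBX8-2. It fell in shCBX8-2 by 0.80 ± 0.11 on the log2 scale (adjusted p = 0.00774). ULBP1 and RAET1G did not pass.

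**Figure D5:**
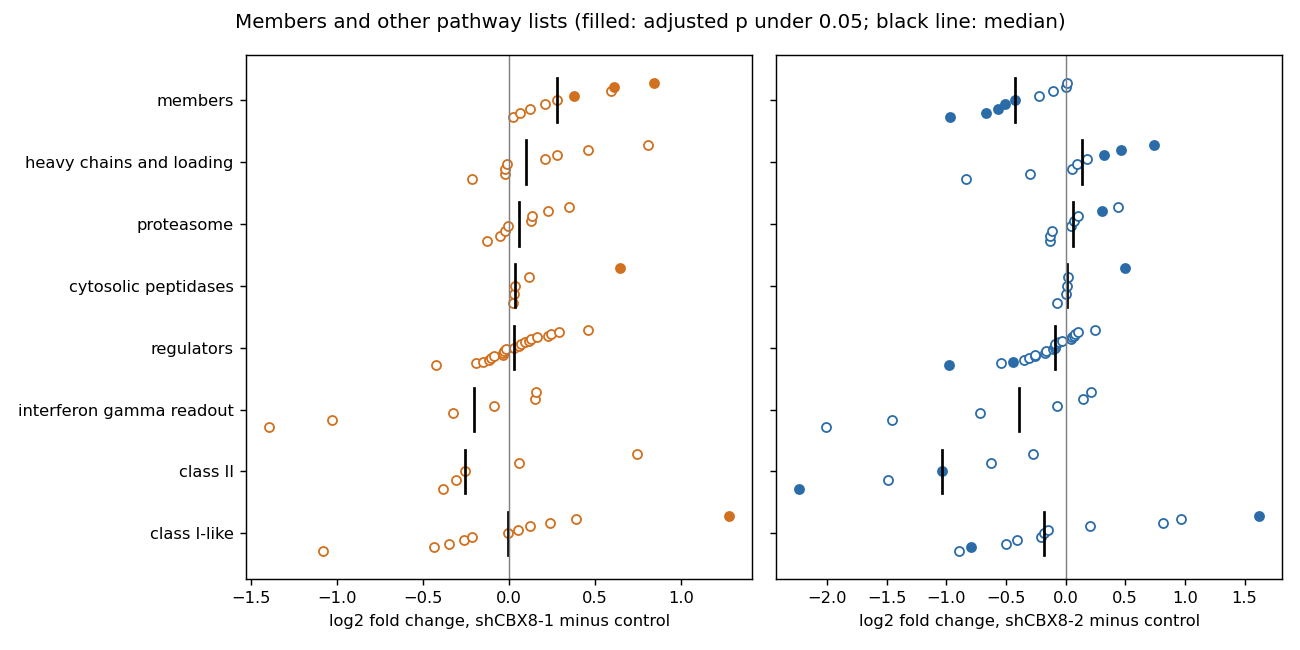
Log2 fold change against control (horizontal axes) of the 9 genes and of the tested genes of 7 other antigen presentation lists, for shCBX8-1 (left) and shCBX8-2 (right); each point is a gene, filled where its adjusted p was under 0.05, and black lines are list medians. The medians of the 9 genes lie at 0.28 and -0.42, and among the other lists 2 genes in shCBX8-1 and 11 in shCBX8-2 are filled.

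The mean profile of the 9 genes over the 6 libraries, on centred log2 values, was -0.0058 and 0.031 in the control libraries, 0.35 and 0.37 in shCBX8-1, and -0.33 and -0.41 in shCBX8-2. TAP1 lay nearest to it (Euclidean distance 0.289) and PSMB9 farthest (0.876). Of 9913 genes with a mean of at least 10 CPM, the nearest outside the set were SQLE, the squalene epoxidase of cholesterol synthesis (0.112), CCDC106 (0.114), SCPEP1 (0.126), IL27RA (0.134) and CABLES2 (0.137). SQLE, for instance, was at 128 and 121 CPM in the controls, 149 and 153 in the shCBX8-1 libraries, and 93.9 and 89.1 in those of shCBX8-2. With 6 libraries in 3 groups, many genes can share such an order, and the distances are a description.

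Isoform entries were split within some genes. The smaller share of PSMB8 counts, in 1 of its 2 accessions, was 41.4% and 46.6% in the control libraries, 40.5% and 41.3% in the shCBX8-1 libraries, and 31.0% and 36.3% in those of shCBX8-2. In shCBX8-2 replicate 1 this accession stood at 5.78 CPM at the main locus and 0.173 at alternate copy 1. Shares also moved within groups: 1 TAP2 accession held 20.8% and 43.7% in the shCBX8-1 libraries, and 1 TAPBP accession 12.9% and 2.76% in those of shCBX8-2. No group difference in isoform use is read from these shares, and none was tested. For TAP1, the main accession held at least 99.6% of counts in each library. HLA-B, HLA-E, B2M and PSMB9 each had 1 accession.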

How the data were processed

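RNA sequencing counts of 6 libraries were used. Per the submitters' processing notes, HISAT2 2.2.1, StringTie 2.2.1 and DESeq2 1.34.0 were used with the build hg38; which tool made the values is not given in the sources used here. The authors deposited estimated counts per RefSeq transcript (expected counts, not scaled); all were whole, so rounding changed nothing. Of 84787 entries, 83963 were matched to symbols by RefSeq GRCh38.p14 and 357 by GENCODE, 99.45% in all, and summed per gene; 467 kept their accession. Depth was 64197784 to 67169537 counts per library, and n is 2 libraries per group, with 3 residual degrees of freedom and a biological coefficient of variation of 19.2%.

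The edgeR 4.0.16 quasi-likelihood test (R 4.3.3) was fitted to all 6 libraries in 3 groups, with TMM scaling, filterByExpr (minimum count 10, minimum total 15), 17115 genes and Benjamini-Hochberg adjustment at 0.05. CPM are computed from TMM-scaled totals, except the sums over marker lists, which use unscaled totals. SE are those of the fit. The script was tested on simulated data in which few genes changed, so its recovery is no measure of power in the real tables: for shCBX8-2 minus shCBX8-1, over 17521 genes, it recovered 62% of genes changed 1.5-fold and 100% of those changed 2-fold against control in opposite directions; for shCBX8-1 minus control it recovered 1% and 29%, and for shCBX8-2 minus control 0% and 10%.

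The 9 genes and all lists were chosen with earlier results of these data known. Named were all 9 genes; of 7 other lists, up to 4 genes each with the smallest p in any contrast against control, plus HLA-F, HLA-G, PSMB10, PSMB5, PSMB6, PSMB7, NLRC5 and IRF1 (some listed genes, and results that need them, are not reported here); and the 5 genes nearest in profile (prior count 0.5, minimum 10 CPM). Copies of a locus were told apart by the order of entries; only copies with at least 600 counts were counted. Promoter sequences come from RefSeq GRCh38.p14. Alternatives were DESeq2 1.42.0 (Wald test, and its size factors in edgeR), no filter, no suffixed entries, a replicate block, only the libraries compared, the knockdown libraries as 1 group, and each library left out; main-locus entries only and alternate entries only were added after seeing the data.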

Additional observations from a re-analysis of the deposited data

Results flagged for a closer look

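Of the 9 genes, 7 differed in level between the libraries of the 2 shCBX8 groups by the edgeR quasi-likelihood test of shCBX8-2 minus shCBX8-1. HLA-C and TAP2 did not pass. The log2 differences among the 9 genes were -1.35 for HLA-B, -0.45 for HLA-E, -0.38 for B2M, -0.88 for TAP1, -0.35 for TAPBP, -1.16 for PSMB8 and -1.58 for PSMB9, each a description because the genes were proposed with this contrast in view. CBX8 counts also differed between the groups, by 1.02 ± 0.15 (SE), with shCBX8-2 the higher; its part in the result was not tested.

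In the other lists, the difference was 0.76 for TAPBPL and 0.34 for PDIA3, both higher in shCBX8-2. It was -1.11 for HLA-F, -0.34 for PSME2, -0.94 for JAK1, -0.41 for RFX5, -0.64 for NFKB1, -2.98 for HLA-DPA1 and -0.58 for MR1, all lower in shCBX8-2. HLA-DPA1 is counted at a low level, at most 1.67 CPM in any library. The HLA-F difference did not pass with main-locus entries only or without suffixed entries.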

How the results depend on the processing

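Leaving out each library in turn gave 0 to 4 calls among the 9 genes for the knockdown mean (0 with all libraries), 0 to 5 for shCBX8-1 (3), 0 to 6 for shCBX8-2 (5) and 3 to 9 for shCBX8-2 minus shCBX8-1 (7). Among the other pathway genes it gave 0 to 22 (6), 0 to 13 (2), 1 to 25 (11) and 1 to 24 (9). CBX8 in the knockdown mean (-1.20) ran from -1.29 to -1.12, and fell short of the threshold without either control or either shCBX8-1 library. It also fell short with the knockdown libraries as 1 group (-1.11). That setting left 0 calls among the other pathway genes, where 0.158% of all genes were called. The lone library of a reduced group was assumed to vary like the others. The DESeq2 Wald test called 3 of the 9 genes in the knockdown mean, 5 in shCBX8-1, 6 in shCBX8-2 and 8 in the difference between knockdowns, and 12, 8 and 16 other pathway genes in the knockdown mean, shCBX8-1 and the difference between knockdowns. Of all genes it called 14.3% in the knockdown mean, 8.63% in shCBX8-1, 20.8% in shCBX8-2 and 17.3% in the difference. With only the libraries compared, 6 of the 9 genes were called in shCBX8-1 (14.4% of all genes, against 2.47%). That setting called 13, 4 and 3 other pathway genes in shCBX8-1, shCBX8-2 and the difference, where 14.4%, 5.97% and 3.85% of all genes were called. For the knockdown mean it is the same fit. Replicate numbers did not pair the libraries: same-numbered libraries correlated between -0.017 and 0.016 in their deviations. A replicate block left 1 of the 9 genes (HLA-B) and 0 other pathway genes called in shCBX8-1 (1.01% of all genes). Entries without a suffix gave 0, 1 and 3 calls among the 9 genes in shCBX8-1, shCBX8-2 and the difference (2.09%, 12.6% and 9.65% of all genes). They reversed HLA-B in shCBX8-2 (4.37) and in the difference (3.09), where few of its counts remained. Main-locus entries gave 0, 2 and 4 calls (2.44%, 12.6% and 9.76% of all genes). They reversed PSMB8 in shCBX8-2 (0.79) and in the difference (0.22), where shCBX8-2 replicate 1 stood at 13.8 CPM. HLA-B could not be tested with these entries. DESeq2 size factors and no filter on low counts kept each count within 1.5 times.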
